A study of Danio rerio with 8 samples.

Results

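The regulators of cell death and stress responses pmaip1, ddit4, ppp1r15a and junba (Entrez genes 751765, 378866, 797943 and 407086) were followed in the zebrafish ovary after dietary exposure to TCDD, a chlorinated dioxin that activates the aryl hydrocarbon receptor. The members were all probe sets whose single annotated symbol was 1 of these 4 genes: 8 of 15502 probe sets on the Affymetrix zebrafish array, with 2 for pmaip1, 1 for ddit4, 4 for ppp1r15a and 1 for junba. The genes were picked with their levels across doses and run days already known, so their dose and day differences are given as a description, without p-values. Where members that pass a limma threshold are counted below, nothing is read from it. Adult females of the AB strain, 6 to 8 months old, were fed for 15 days on chow carrying 0 (acetone only), 10, 40 or 100 ppb tritium-labelled TCDD (ng per g of feed), and the fish spawned every week meanwhile. Whole ovaries were taken, equal amounts of RNA of 5 ovaries made up the pool of each dose, and 2 arrays were hybridised with every one of these 4 pools. Both arrays of a pool are technical replicates, so every SE and p-value below measures the spread between arrays and none measures variation between fish. Whole ovary mixes oocytes, follicle cells, blood and connective tissue, and fewer cells of a type cannot be told apart from less RNA per cell.

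The genes act at different points of the stress response, as worked out mainly in mammals. pmaip1 encodes Noxa, a small protein of the BCL2 family that carries only the BH3 domain, binds pro-survival members such as MCL1 and so favours mitochondrial cell death; it is a target of p53. ddit4 encodes REDD1, which restrains the growth-promoting kinase complex TORC1 and is switched on by hypoxia, glucocorticoids and energy stress. ppp1r15a encodes GADD34, which brings protein phosphatase 1 to the phosphorylated translation factor eIF2α and thereby ends the block on translation that defines the integrated stress response. junba is a zebrafish gene for JunB, a DNA-binding subunit of the AP-1 transcription factor, whose genes respond within minutes to many stimuli.

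Levels are normalized log2(intensity + 16), where the intensity is the deposited signal of a probe set and 16 damps noise of dim probe sets; differences are on this scale and understate changes of dim probe sets. Of all probe sets, 9301 lay above the 40th percentile of mean level and were tested, among them all 8 members, and every member was brighter on all 8 arrays than the 95th percentile of the tag controls, which match no zebrafish transcript. The arrays were run on 3 days: replicate 1 of the 10 ppb pool alone on day 1, replicate 1 of the 0, 40 and 100 ppb pools on day 2, and replicate 2 of every pool on day 3. The 10 ppb arrays stood furthest apart, with 190 tested probe sets at least 1 log2 unit apart against 9 to 20 in the other pools. As a check of exposure, cyp1a, the classic target gene of the aryl hydrocarbon receptor, stood at 5.37 and 5.53 in the control arrays and at 7.27 to 9.49 in the 6 exposed arrays.

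**Figure D1:**
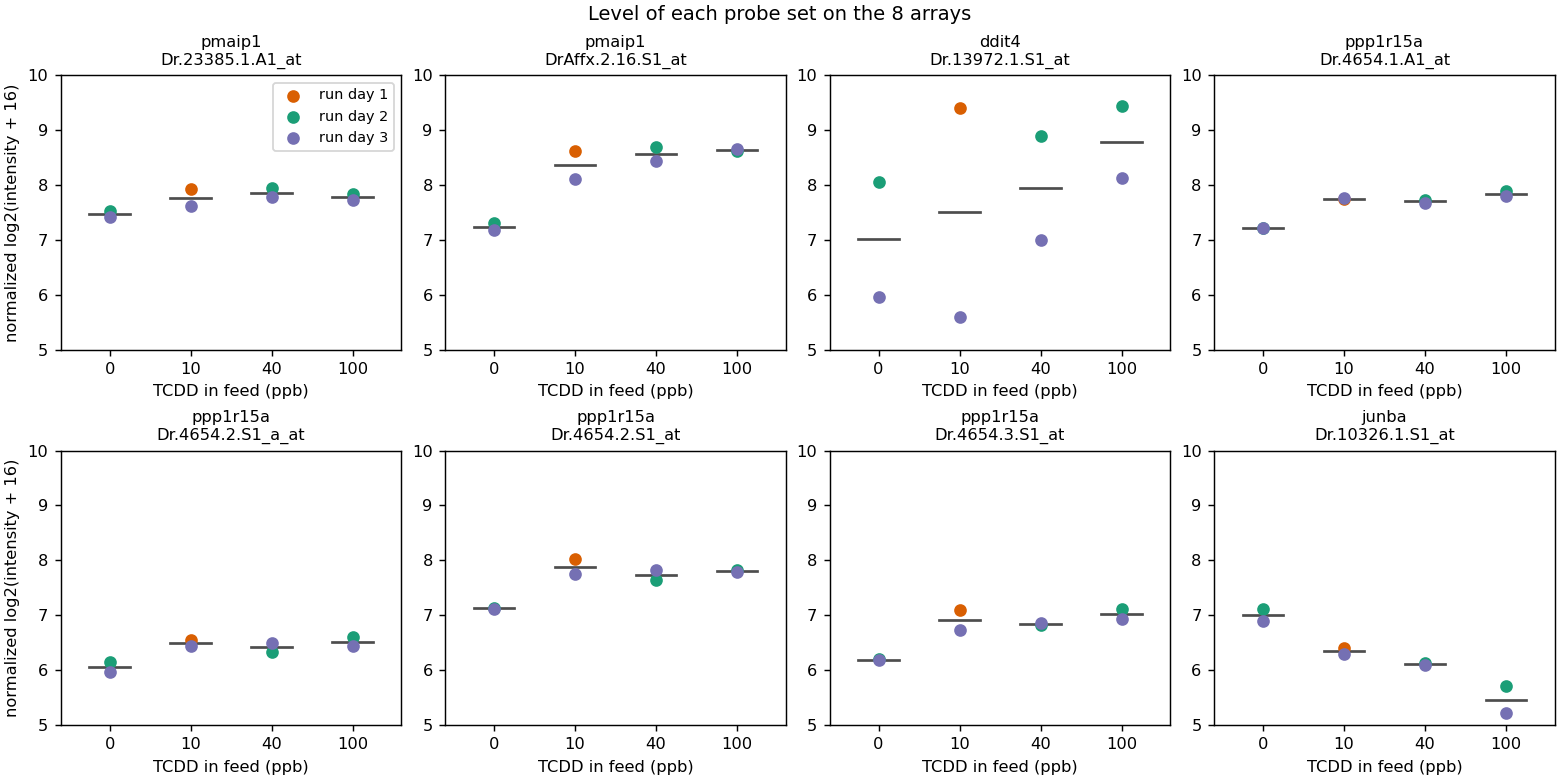
Normalized log2 level (y axis) of the 8 member probe sets on each array against the TCDD concentration of the feed (x axis, 4 pools, equally spaced). Points are arrays, coloured by run day, and bars are pool means; the ddit4 arrays of 1 pool lie up to 3.82 apart, while all other members stay within 0.51 of each other within a pool.

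pmaip1 was higher in every exposed pool, but its probe sets did not show this to the same extent. The brighter probe set, by mean over all 8 arrays, is the one whose identifier starts with DrAffx. In the control pool it was the lower one (mean 7.24 against 7.47), so it ranks brighter through the exposed pools. On it the control arrays read 7.31 and 7.18, the 10 ppb arrays 8.63 and 8.12, the 40 ppb arrays 8.70 and 8.44, and the 100 ppb arrays 8.63 and 8.66. All 6 exposed arrays lay above both control arrays, and the exposed pools overlapped each other. The differences from control were 1.13, 1.32 and 1.40 at 10, 40 and 100 ppb (SE 0.17), which correspond to 2.19-, 2.50- and 2.64-fold. From 10 to 40 ppb the pool mean moved by 0.19 and from 40 to 100 ppb by 0.08, both within the gap of 0.51 between the 10 ppb arrays.

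On the dimmer pmaip1 probe set, whose identifier ends in A1_at, the controls read 7.52 and 7.43, the arrays at 10 ppb 7.92 and 7.63, those at 40 ppb 7.95 and 7.78, and those at 100 ppb 7.84 and 7.72. Here too the 6 exposed arrays stood above both controls, but by 0.30, 0.39 and 0.31 (SE 0.14), and in the deposited scaling, where the median of all tested probe sets shifted by -0.34, the 10 ppb difference turned to -0.05. Relative to the control pool, where the brighter probe set was the lower one, its level minus that of the dimmer one rose by 0.83, 0.93 and 1.09 at 10, 40 and 100 ppb. The rise was at least 0.72 on each of the 6 exposed arrays. Both probe sets are annotated to the same gene identifier, and which transcript or gene region each one reads was not analysed here.

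On the run days that held a control array, days 2 and 3, every exposed pmaip1 array lay above it. On the brighter probe set the 100 ppb array exceeded the control array by 1.31 on day 2 and 1.48 on day 3, the 40 ppb array by 1.38 and 1.26, and the 10 ppb array by 0.94 on day 3, the only day it shared with a control. The order of the 40 and 100 ppb arrays was not the same on both days. The difference between days 3 and 2, averaged within the 0, 40 and 100 ppb pools, was -0.12 ± 0.08 (SE, 3 pools).

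ddit4 was the member whose arrays of the same pool differed most. Its deposited intensities were 392.1 and 33.0 for the control arrays, 665.9 and 22.8 for those at 10 ppb, 666.4 and 105.7 for those at 40 ppb, and 915.7 and 197.2 for those at 100 ppb. After normalization the control arrays read 8.05 and 5.97, the 10 ppb arrays 9.42 and 5.59, the 40 ppb arrays 8.90 and 7.01, and the 100 ppb arrays 9.45 and 8.13. In every pool the day 3 array was the lower one, with gaps of -2.08, -3.82, -1.90 and -1.32 in order of dose, and the control gap was the widest of all 9301 tested probe sets. The pool means lay 0.49, 0.95 and 1.78 above control at 10, 40 and 100 ppb with an SE of 1.08. That SE draws on other probe sets too, and it includes the difference between run days, since the fit has no term for day. The SD between arrays of ddit4 alone was 1.74. Exposed and control arrays overlapped at 10 and 40 ppb, while at 100 ppb the lower array, at 8.13, lay just above the higher control array, at 8.05.

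Read within a run day, ddit4 was ordered by dose for the 0, 40 and 100 ppb pools. On day 2 the array at 40 ppb exceeded the control array by 0.85 and the array at 100 ppb by 1.39. On day 3 the differences from control were 1.04 and 2.16, while that of the 10 ppb array was -0.38. The 10 ppb value depended on the array used: the pool difference of 0.49 was -1.42 without replicate 1, 2.42 without replicate 2 and -0.53 with run day as a block. At 40 ppb the difference was 1.97 with control replicate 1 left out, -0.10 with control replicate 2 left out, and -0.01 and 1.90 with the first and the other 40 ppb array left out. At 100 ppb it was 2.80 and 0.74 without control replicate 1 and 2, and 1.11 and 2.44 without 100 ppb replicate 1 and 2.

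The run days themselves were compared across all probe sets with limma, fitting pool and day over the 0, 40 and 100 ppb arrays. Of 9301 probe sets, 3 differed between day 3 and day 2 at an adjusted p under 0.05 and at least 1 log2 unit, which is 0.0323% of those tested. ddit4 was among them, with a day difference of -1.77 ± 0.13 (SE). Since ddit4 was picked with its run day levels known, nothing is read from its passing this test. The others were syncripl, a gene for an RNA-binding protein related to hnRNP Q, at -1.57 ± 0.09 (limma, adjusted p = 7.1e-05), and eif4a1a, which encodes an RNA helicase of translation initiation, whose day 3 arrays were higher by 0.85, 0.99 and 1.46 in the 0, 40 and 100 ppb pools (limma, adjusted p = 0.00216). For syncripl the replicate 1 and 2 arrays read 8.97 and 7.20 in the control pool and 8.76 and 7.35 in the 100 ppb pool, and its pool differences from control were -0.15, -0.29 and -0.03 at 10, 40 and 100 ppb. Run day 3 holds every replicate 2 array, so the day, the replicate and the separate hybridisation cannot be told apart.

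**Figure D2:**
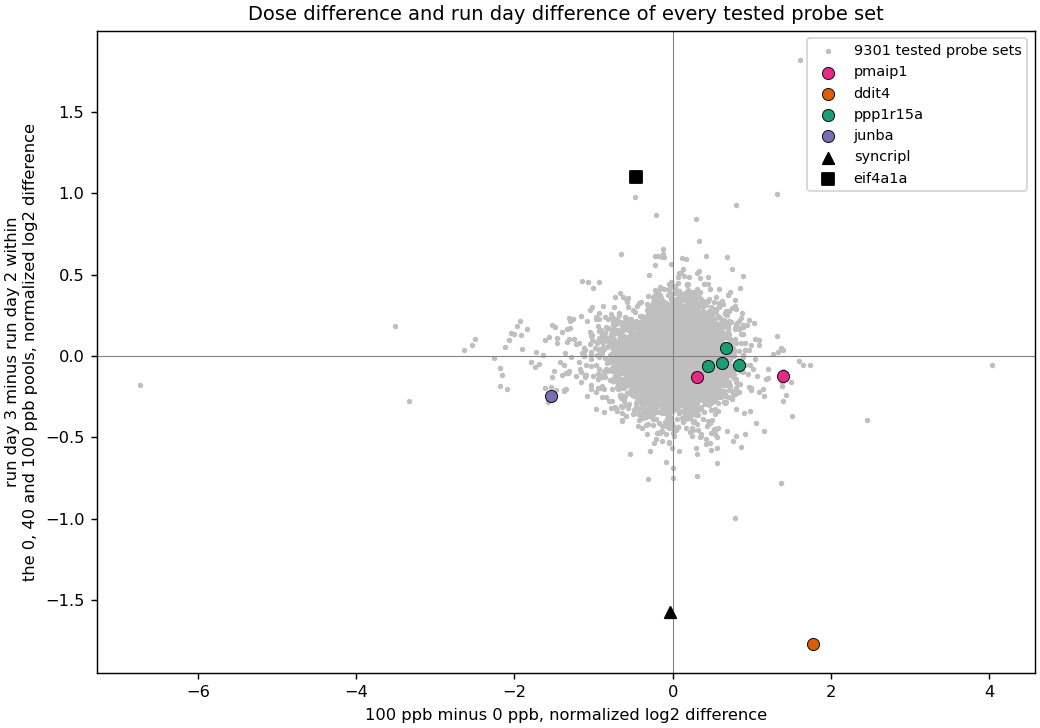
Difference between the 100 ppb and 0 ppb pools (x axis, normalized log2) against the difference between run days 3 and 2 within the 0, 40 and 100 ppb pools (y axis, normalized log2) for the 9301 tested probe sets in grey, with the members in colour. ddit4 lies at 1.78 and -1.77, far from 0 on both axes and at the edge of all tested probe sets on the day axis, and the other members lie within 0.25 of 0 on the day axis.

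ppp1r15a was higher at every dose on each of its 4 probe sets, by 0.35 to 0.83. These probe sets are ranked by mean level over all 8 arrays, and in the control pool the brightest stood below the second (mean 7.12 against 7.22). On the brightest of them the control arrays read 7.13 and 7.11, the 10 ppb arrays 8.01 and 7.75, the 40 ppb arrays 7.63 and 7.82, and the 100 ppb arrays 7.81 and 7.79. On the second in brightness, whose identifier ends in A1_at, the values were 7.21 and 7.23, then 7.74 and 7.76, 7.72 and 7.68, and 7.89 and 7.79 in the same order. All 6 exposed arrays stood above both controls on all 4 probe sets, and the exposed pools lay close together.

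On the third in brightness the controls read 6.20 and 6.18, followed by 7.10 and 6.72, 6.82 and 6.85, and 7.11 and 6.93 with increasing dose. The dimmest, whose identifier ends in S1_a_at, gave 6.15 and 5.97, then 6.55 and 6.43, 6.33 and 6.49, and 6.59 and 6.43. The control arrays were again the lowest on both probe sets, while the order of the 3 exposed pools differed between probe sets.

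From the brightest to the dimmest probe set, the differences from control at 10, 40 and 100 ppb were 0.76, 0.61 and 0.68 (SE 0.14), 0.53, 0.48 and 0.62 (SE 0.12), 0.72, 0.65 and 0.83 (SE 0.16), and 0.43, 0.35 and 0.45 (SE 0.15). The widest of them, that of the third probe set at 100 ppb, corresponds to 1.78-fold. Between exposed pools no probe set of this gene differed by more than 0.18. On the second in brightness the step from 40 to 100 ppb, 0.14, was wider than its widest gap between arrays of a pool, 0.10. In the deposited scaling all 12 differences were still above 0, from 0.09 to 0.77. Of these probe sets the brightest and the dimmest carry the same transcript accession, and all 4 read the same gene, so they are not independent measurements of it.

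On the shared days, the 100 ppb arrays exceeded the control array by 0.44 to 0.91 on day 2 and by 0.46 to 0.75 on day 3 over the 4 ppp1r15a probe sets. The day differences of these probe sets lay between -0.06 and 0.05.

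junba went the other way and, after normalization, was the member with the most regular order of pools. Its probe set read 7.11 and 6.88 in the control pool, 6.41 and 6.28 in the 10 ppb pool, 6.12 and 6.10 in the 40 ppb pool, and 5.70 and 5.22 in the 100 ppb pool. On this normalized scale no array of a higher dose reached an array of a lower dose. The differences from control were -0.65, -0.89 and -1.54 at 10, 40 and 100 ppb (SE 0.18), the last of these being 2.91-fold lower. The deposited scaling gave -1.02, -0.82 and -1.62 in the same order, with the 10 ppb pool below the 40 ppb pool. Within day 2 the arrays at 40 and 100 ppb differed from the control array by -0.99 and -1.41, and within day 3 those at 10, 40 and 100 ppb by -0.60, -0.79 and -1.67. The step from 10 to 40 ppb was -0.24, similar in size to the gap of 0.23 between the control arrays and within the gap of 0.48 between the 100 ppb arrays. The difference between days 3 and 2, averaged within the 0, 40 and 100 ppb pools, was -0.25 ± 0.12 (SE, 3 pools).

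**Figure D3:**
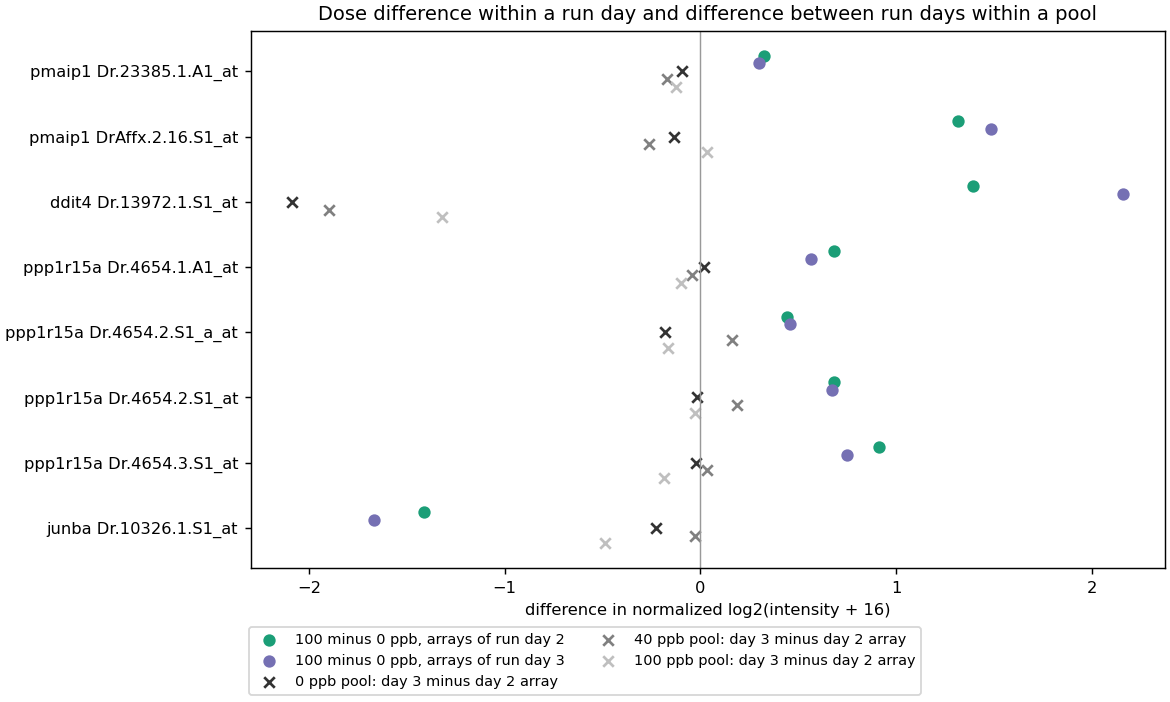
For each member probe set (rows), the difference between the 100 ppb and 0 ppb arrays within run day 2 and within run day 3 (circles) and the difference between the day 3 and day 2 arrays of the 0, 40 and 100 ppb pools (crosses), in normalized log2 units (x axis). The crosses of ddit4 lie from -2.08 to -1.32, those of the other 7 probe sets between -0.48 and 0.19.

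Set against all probe sets, the widths of these patterns differed by gene. The range of the 4 pool means was wider than the widest gap between arrays of a pool for 7 of the 8 member probe sets, the exception being ddit4 at 1.78 against 3.82; of all tested probe sets 46.8% met that condition. The ratio of range to gap was 6.45 on the second probe set of ppp1r15a, 3.18 for junba and 2.73 on the brighter probe set of pmaip1. The 6 exposed arrays lay above both controls for 6 member probe sets and below both for junba, against 7.68% and 9.43% of all tested probe sets. Since the members were selected on these same arrays, nothing is read from these counts.

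By limma's test over all probe sets (adjusted p under 0.05 and at least 1 log2 unit), 1 of 8 member probe sets was called at 10 ppb, 1 at 40 ppb and 2 at 100 ppb, against 1.11%, 0.344% and 1.25% of all tested probe sets. They were the brighter probe set of pmaip1 at each dose and junba at 100 ppb. With no minimum difference, 4, 1 and 5 member probe sets passed, against 2.43%, 0.613% and 5.17% of all; the additions were the 3 brighter probe sets of ppp1r15a at 10 and 100 ppb. All of these counts use the contrast the members were chosen on and support nothing.

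Those calls shifted with single arrays. The pmaip1 call at 10 ppb ended without control replicate 1 (difference 1.199), control replicate 2 (1.07) and 10 ppb replicate 1 (0.87), with run day as a block (0.94) and in the deposited scaling (0.77). The call at 40 ppb ended without either control array (1.39 and 1.26) or either 40 ppb array (1.19 and 1.45) and in the deposited scaling (1.44). At 100 ppb both calls ended only in the deposited scaling among the 12 alternatives applied to the members, with differences of 1.31 for pmaip1 and -1.62 for junba. Other filters and fits of only the compared pools were not among those 12. Nothing is read from a call that stayed, since the members were chosen on this contrast. The replicate and run day blocks also leave the 100 ppb differences unchanged. junba lay at percentile 55.0 of mean level, so it falls below a filter at the 60th percentile and its call is lost there. ddit4 passed at 100 ppb in 2 of 12 alternatives, with the replicate number or the run day as a block, at an unchanged difference of 1.78.

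Several transcripts of other cell types differed between pools, not all of them in order of dose. At 10 ppb the summed level of 14 liver genes on the array was 4857 and 15871, where the control arrays gave 2544 and 3009. Both 10 ppb arrays read the same RNA pool. By limma's test 10 of 14 tested liver genes were higher at 10 ppb and 1 lower. At 40 and 100 ppb the liver sum was 1323 to 2074. At 100 ppb the sums were lower than in the control arrays for 9 leukocyte genes (316 to 363 against 641 to 702), 4 red blood cell genes (164 to 186 against 411 to 456) and 8 muscle genes (263 to 268 against 492 to 496). Of the tested genes of these 3 lists, 2 of 7, 2 of 2 and 2 of 4 were lower. At 10 ppb the leukocyte, red blood cell and muscle sums were 471 to 588, 380 to 507 and 322 to 352. There 1 of 7 tested leukocyte genes was higher and no tested gene of these lists was lower. At 40 ppb the 3 sums were 369 to 395, 408 to 452 and 356 to 361, with 2 of 7, 1 of 2 and 0 of 4 tested genes lower. Those of 9 oocyte genes were 18675 and 18937 at 100 ppb against 16477 and 16980, and no tested oocyte or follicle gene was called. For 10 epithelial genes the sums were 6673 to 6932 at 100 ppb, where the controls gave 7394 to 9329, and 6 of 9 tested genes were lower. Their sums at 40 ppb were 6371 and 7438, with 5 of 9 lower. For 3 endothelial genes they were 33.3 to 37.7, where the controls gave 51.4 to 64.9. The follicle marker amh, the muscle marker desma and the endothelial marker tek were not above the tag controls on any array. Signal at the 3' end of gapdh over that at its 5' end, read from control probe sets, was 0.949 and 1.06 in the 100 ppb pool and 1.38 and 1.34 in the control pool. In the 10 ppb pool this ratio was 1.22 and 1.52, and in the 40 ppb pool 1.23 and 1.16. What part these shifts have in the values of the members and of the pathway lists was not tested.

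The pathways around the members were followed with 5 gene lists without the members, which together held 136 tested genes. Against control, 103 of 9301 probe sets were called at 10 ppb (60 higher, 43 lower), 32 at 40 ppb (4 and 28) and 116 at 100 ppb (28 and 88), all against the same control pool; in the deposited scaling the splits were 45 and 19, 1 and 3, and 1 and 12. The median differences of all tested probe sets were -0.02, 0.01 and 0.00 at the 3 doses, in order. At an unadjusted p under 0.05, the threshold of the further counts given for each list, 15.0%, 11.7% and 23.2% of all tested probe sets passed at 10, 40 and 100 ppb.

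In the p53 list, which holds the regulators and targets among which pmaip1 belongs, none of 17 tested genes (33 listed) was called at any dose by limma, and 2, 3 and 9 had an unadjusted p under 0.05 at 10, 40 and 100 ppb. Its medians were 0.08, 0.10 and 0.11. mdm2, the p53 target that degrades p53, differed by 0.27, 0.17 and 0.31 (SE 0.14) at 10, 40 and 100 ppb.

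Of 28 tested genes in the list of the BCL2 family, caspases and apoptosome (51 listed), none was called by limma at any dose either, with 5, 2 and 4 at an unadjusted p under 0.05 and medians of -0.01, 0.01 and 0.04. mcl1a and mcl1b, which encode the binding partner of Noxa, differed by 0.05, 0.24 and 0.26 (SE 0.12) and by 0.00, 0.07 and 0.11 (SE 0.13). The lowest adjusted p of the list was that of dffb, a gene for the DNase that caspases activate, which differed by 0.41, 0.18 and 0.64 at 10, 40 and 100 ppb (SE 0.17; limma, adjusted p = 0.0555 at 100 ppb). The initiator caspase gene casp8 differed by 0.41, 0.24 and -0.10 (SE 0.15), and the apoptosome caspase gene casp9 by -0.08, 0.09 and 0.24 (SE 0.17).

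In the list for the integrated stress response and the unfolded protein response, 1 of 35 tested genes (51 listed) was lower at 100 ppb and none was called at 10 and 40 ppb, with 5, 7 and 7 at an unadjusted p under 0.05. The medians were 0.04, 0.00 and -0.04. The gene was slc3a2a, which encodes the heavy chain of amino acid transporters, at 6.34 and 6.58 in the control arrays and 5.55 and 5.18 at 100 ppb, a difference of -1.10 ± 0.28 (limma, adjusted p = 0.0497). The call ended without any single array of the 0, 40 or 100 ppb pools (differences of -1.27 to -0.92), in the deposited scaling, with a pseudocount of 1 and with no filter. atf4a and atf4b, whose transcription factor activates ppp1r15a in mammals, differed by -0.16, -0.32 and -0.01 (SE 0.13) and by -0.15, -0.07 and -0.02 (SE 0.16) at 10, 40 and 100 ppb. The chaperone gene hspa5 differed by 0.15, 0.04 and 0.15 (SE 0.10).

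Among 29 tested genes of TORC1 signalling and of the glucocorticoid and hypoxia response (46 listed), 1 rose and 1 fell at 10 ppb and none was called at 40 or 100 ppb, with 6, 1 and 9 at an unadjusted p under 0.05. The medians were -0.06, -0.10 and -0.25. igfbp1a, which encodes a carrier of insulin-like growth factors, read 5.44 and 5.68 in the control arrays and 8.53 and 6.97 at 10 ppb, a difference of 2.19 ± 0.39 (limma, adjusted p = 0.0156). The igfbp1a call ended without control replicate 1 or 2 (2.05 and 2.33), and its other probe set differed by 1.69 and was not called. ndrg1b, a gene of the NDRG family, read 7.35 and 7.33 in the control arrays and 6.41 and 5.88 at 10 ppb, a difference of -1.20 ± 0.18 (limma, adjusted p = 0.0056). It differed by 0.22 at 40 ppb and by -0.72 at 100 ppb (limma, adjusted p = 0.0424 at 100 ppb), under the 1 log2 unit of a call. The ndrg1b call ended without control replicate 1 or 2 (-1.18 and -1.22), without 10 ppb replicate 2 (-0.94) and in the deposited scaling, and both calls ended with only the compared pools. fkbp5 and tsc22d3, glucocorticoid-induced genes like ddit4, differed by 0.86, 0.17 and 0.38 (SE 0.17) and by 0.06, -0.24 and -0.30 (SE 0.20) at 10, 40 and 100 ppb.

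Of 32 tested genes of AP-1 and the immediate early response (62 listed), 2 were lower at 100 ppb and none was called at 10 and 40 ppb, with 4, 6 and 8 at an unadjusted p under 0.05. The medians were 0.03, 0.01 and 0.02. zfp36l1b, which encodes a protein that binds AU-rich elements and destabilises mRNA, read 6.36 and 6.39 in the control arrays and 5.34 and 5.09 at 100 ppb, a difference of -1.16 ± 0.16 (limma, adjusted p = 0.00316). The transcription factor gene klf2b read 5.67 and 5.68 in the control arrays and 4.16 and 4.59 at 100 ppb, where both arrays lay below the tag controls. Its call (limma, adjusted p = 0.00901) rests on the measured difference of -1.29. As a bound, klf2b was at least 1.86-fold lower, or 0.90 log2 units, which is under the 1 log2 unit that a call needs. Nothing is read from its call. The klf2b call ended without 100 ppb replicate 1 (-1.07), and both calls ended in the deposited scaling. klf2b passed the filter on low values by a small margin (mean 5.13, filter 5.11) and through the control and 10 ppb pools, where it was higher. With a pseudocount of 1, under a stricter filter (60th percentile), and without any single control or 10 ppb array it fell below the filter and was not tested. The paralog junbb differed by 0.10, 0.00 and -0.23 (SE 0.19) where junba differed by -0.65, -0.89 and -1.54, and the partner gene fosab by 0.34, 0.15 and 0.06 (SE 0.23).

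**Figure D4:**
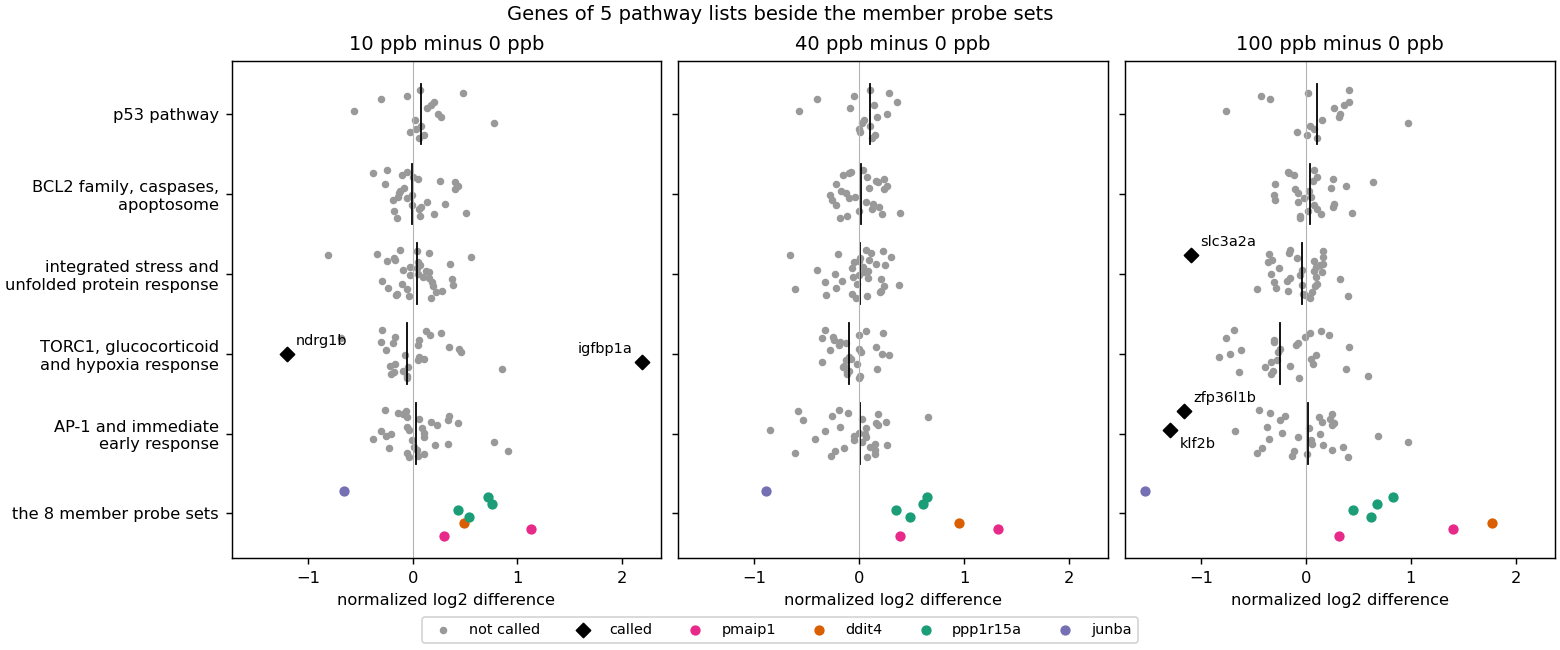
Difference from the control pool (x axis, normalized log2) at 10, 40 and 100 ppb for the tested genes of 5 pathway lists (rows, 1 probe set per gene) and for the 8 member probe sets (bottom row). Grey points were not called by limma, black diamonds were, and vertical bars are list medians; list medians lie between -0.25 and 0.11 at every dose.

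The genes with the most similar profiles were found by the root mean square difference over the 8 arrays between values centred on their own mean, using the brightest probe set of each member; the arrays share pools, run days and scaling. The probe sets used for pmaip1 and ppp1r15a were the brightest through the exposed pools, not in the control pool. Nearest to pmaip1 were crp, an acute-phase pentraxin gene (0.25), brd9, which encodes a bromodomain protein (0.27), and the third probe set of ppp1r15a (0.28). Since pmaip1 and ppp1r15a were both picked with their levels known, nothing is read from their nearness. For ppp1r15a the nearest were tgm2b, a transglutaminase gene (0.12), badb, a BCL2 family gene of the BAD type (0.12), and the cytokine signalling inhibitor gene socs1a (0.13). badb differed from control by 0.51, 0.38 and 0.44 (SE 0.14) and was not called, and its other probe set differed by 0.17, -0.06 and 0.16. For junba they were the glycolytic gene gapdhs (0.16), s100a10b, which encodes a calcium-binding family member that partners annexins (0.17), and cebpa, a transcription factor gene (0.18). gapdhs read 8.92 and 9.11 in the control arrays and 7.43 and 7.31 at 100 ppb, so like junba it was lowest at the highest dose. For ddit4 the nearest profiles were further off, syncripl at 0.88, nudt21, a gene of mRNA 3' end processing, at 0.90 and mkrn4 at 0.91. The values were not scaled, so this measure grows with the spread of a profile. The SD over the 8 arrays was 1.49 for ddit4, 0.62 for pmaip1, 0.61 for junba and 0.33 for ppp1r15a.

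**Figure D5:**
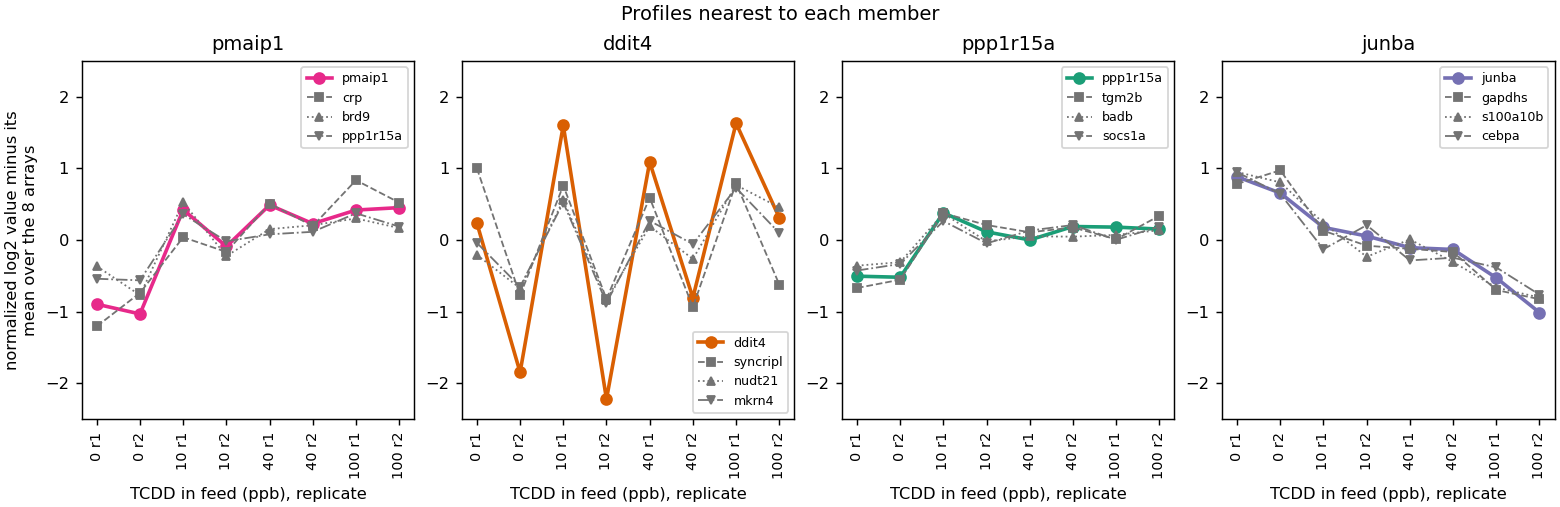
Normalized log2 value minus its mean over the 8 arrays (y axis) for each member and the 3 genes with the most similar profile, over the arrays in order of dose and replicate (x axis, r1 and r2 are the replicates, and lines only guide the eye). The nearest profiles of junba lie within 0.18 of it by root mean square difference, those of ddit4 no closer than 0.88. This measure grows with the spread of a profile, which was widest for ddit4.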

How the data were processed

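The members and gene lists were chosen with earlier results of these data known. The authors deposited linear intensity values for each probe set; per the submitters' processing notes they are MAS5 signals, with the version and scaling target not given in the sources used here. Per the file headers, the deposited instrument files hold station and scanner settings (unit: other), and only their run days were used. Trimmed mean intensities (2% per tail) ranged from 96.1 to 212 between arrays, so values were quantile normalized as log2(intensity + 16) without 115 control probe sets. A single symbol was annotated to 10795 of 15502 probe sets, several to 135 and none to 4572. For 10711 of the probe sets with a single symbol, the gene identifier was found in a current gene table, which updated 1 symbol. No coordinates or sequences are given.

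Pools were compared with limma 3.58.1 in R 4.3.3 (lmFit on 4 pool means over 8 arrays, eBayes with trend, p-values adjusted by Benjamini-Hochberg over 9301 probe sets; 4 residual degrees of freedom); a probe set was called at an adjusted p under 0.05 and at least 1 log2 unit. The run day fit had pool and day as terms and 2 residual degrees of freedom. Every SE is limma's after eBayes, which moves the variance of a probe set toward that of other probe sets of similar level. It can therefore be smaller or larger than an SE from that probe set's own arrays. Both fits were tested on simulated data. Lists used the brightest probe set per gene; summed marker levels are back-transformed intensities. For a pool below the tag controls on both arrays, a bound was computed from the brighter pool's mean and, in the dim pool, each array's lowest value above those controls (or the probe set's own, if higher). No promoter was searched for motifs. The genes named are all members, cyp1a, the called list genes (up to 4 per list and dose) and the 3 nearest profiles, placeholder symbols passed over; other list genes were named after their values were seen. Alternatives were scaling, pseudocount, filter, blocks, pools in the fit, minimum difference and each array left out. The number of arrays limits the precision.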

Additional observations from a re-analysis of the deposited data

How the results depend on the processing

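Over 12 alternatives, 282 of 288 differences of the member probe sets kept their sign. Of the 6 others, 5 were ddit4 at 10 or 40 ppb and 1 was the dimmer probe set of pmaip1 at 10 ppb. Many of the 288 could hardly change sign, so nothing is read from this count. The replicate block leaves every difference as it was, and the run day block those at 40 and 100 ppb. Leaving out an array of a pool outside the comparison acts only through normalization. By more than the SD between arrays of the same probe set 31 differences moved, 20 of them at 10 ppb. That SD was 1.74 for ddit4 and 0.04 for the second probe set of ppp1r15a, so equal shifts are not counted alike. The ddit4 ranges of -0.10 to 1.97 at 40 ppb and 0.74 to 2.80 at 100 ppb count as not moved. The counts of called probe sets, 103, 32 and 116 at 10, 40 and 100 ppb, were 64, 4 and 13 in the deposited scaling, 37, 15 and 49 when only probe sets above the 60th percentile were tested, and 226, 57 and 481 if any size of difference counted. A pseudocount of 1 gave 197 at 100 ppb, and only the compared pools gave 55 at 10 ppb. Leaving out 1 array gave 19 to 192, 7 to 42 and 69 to 130; a pool with 1 array left is assumed to vary like the others. The count of 3 for run days was 528 in the deposited scaling, in which the median of all tested probe sets differed by -0.75 between days, 7 with a pseudocount of 1, 19 with no minimum difference and 7 without the 0 ppb pool. With the replicate number as a block the dose counts were 109, 29 and 126. The main fit did not take the numbers to pair arrays over all pools. The replicate differences of the 10 ppb pool correlated with those of the other pools at 0.01 to 0.05, against 0.14 to 0.30 among those. In the 0, 40 and 100 ppb pools the numbers do follow the shared run days, which the run day block uses. Of the list genes named, igfbp1a, slc3a2a, zfp36l1b and klf2b lay below the 60th percentile and were not tested there. Among the members, junba and the dimmest probe set of ppp1r15a, at percentiles 55.0 and 56.9, lay below it too. The cause of these shifts was not tested. The 2 arrays per pool limit what can be called, and levels near the tag controls, as for klf2b, are bounds.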

Other observations

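Some list genes passed limma's adjusted p under 0.05 but differed by less than 1 log2 unit; they were picked out after their values were seen. gadd45ab, a growth arrest gene of the p53 and immediate early lists, was higher by 0.78 at 10 ppb (limma, adjusted p = 0.0293) and by 0.97 at 100 ppb (adjusted p = 0.00725), and differed by 0.03 at 40 ppb (SE 0.16). fkbp5, a glucocorticoid-induced chaperone gene, was higher by 0.86 at 10 ppb (limma, adjusted p = 0.0293). txnipa, which encodes a thioredoxin-binding protein, differed by -0.76 at 100 ppb (limma, adjusted p = 0.0292), perp, a p53 target of cell adhesion, by -0.76 (adjusted p = 0.0251), and ywhaqb, a gene for a 14-3-3 protein, by -0.69 (adjusted p = 0.0142). The second probe sets of perp and ywhaqb differed by -0.31 and -0.10 at 100 ppb and did not pass. ndrg1b differed by -0.72 at 100 ppb (limma, adjusted p = 0.0424). klf2a, the paralog of klf2b, differed by -0.68 at 100 ppb (limma, adjusted p = 0.0375), where its arrays read 4.92 and 4.99.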
